A study of Mus musculus with 16 samples.

Results

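Transcripts of 10 genes of adenosine signaling and adenosine turnover were followed in the dorsal hippocampus of 16 mice, out of 35328 genes in the RNA-Seq count table. The genes were chosen by name, with no threshold on their values, and are the 4 adenosine receptors *Adora1*, *Adora2a*, *Adora2b* and *Adora3*, the adenosine transporter *Slc29a1*, the intracellular enzymes *Adk* and *Ada*, and the ectoenzymes *Nt5e*, *Entpd1* and *Entpd2*. Each name matched 1 Ensembl gene, and all 10 passed the filter on low counts that left 17830 genes to test. The study asked how regular caffeine intake changes the hippocampal response to learning.

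All mice were male C57Bl6/J mice with no genetic change named in the labels, and each group held 4 of them. Home cage water mice drank water and rested in their cages. Home cage caffeine mice drank caffeine at 0.3 g/L. In all groups the treatment lasted 2 weeks and started at 8 to 9 weeks of age. Learning water and learning caffeine mice drank the same fluids and were trained for 3 days in the Morris water maze, a test of spatial memory that depends on the hippocampus, and their tissue was taken 1 hour after the last trial. Learning mice also swam and were handled, so training, exercise and handling cannot be told apart in these groups. Mice are named here by group and by the animal number in the labels.

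Adenosine forms outside cells when ectoenzymes strip phosphates from released ATP, and inside cells from AMP. It slows transmitter release through the A1 receptor, which couples to inhibitory G proteins, whereas the A2A and A2B receptors couple to stimulatory G proteins and raise cyclic AMP. Caffeine blocks adenosine receptors, mainly A1 and A2A at the levels reached by drinking, and A2A is known above all from the striatum.

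Library totals ran from 23078094 to 49949281 counts, with a median of 36437284.5. A pair of libraries stood apart. Home cage caffeine mouse 17 had the highest mitochondrial share (4.495%, against 3.232% at the lowest) and lay farthest out on the first principal component of all genes. Learning water mouse 24 differed from the other 3 mice of its group by a chi-square per degree of freedom of 20.1 to 30.4, against 5.26 to 9.74 among those 3. Its 7 oligodendrocyte markers summed to 11956 CPM, against 5128 to 5922 in the rest of its group. The tissue carried the 10 listed markers of hippocampal pyramidal and granule neurons, none at 0 in any group, with summed levels from 6179 to 7579 CPM, counts per 1000000 of the scaled library total. The markers of choroid plexus, a secretory tissue beside the hippocampus, varied widely: their 8 genes summed to 300.8 to 2346 CPM in home cage water, 187.9 to 498.1 in home cage caffeine, 158.5 to 427.2 in learning water and 111 to 199.5 in learning caffeine. In tissue RNA, fewer cells of a type and less RNA per cell cannot be told apart.

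Per length of exon, *Adora1* led the 10 genes by far. Its level was 61.2 ± 5.67 CPM per kilobase (SD, n = 16), which was above 96.7% of the tested genes. *Adk*, the kinase that returns adenosine to AMP and holds its level low, followed at 6.062 ± 0.308 CPM per kilobase. *Adora1* stood above *Adk* in 16 of 16 mice, by 10.1 times in the mean, and their ranges did not meet.

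Below them came *Slc29a1* at 4.771, *Entpd2* at 3.184, *Entpd1* at 2.331 and *Adora2b* at 1.587 CPM per kilobase. The last 4 were *Adora2a* at 0.8498, *Nt5e* at 0.4344, *Ada* at 0.2605 and *Adora3* at 0.198 CPM per kilobase. Within single mice most neighbors kept this order: *Adk* lay above *Slc29a1*, *Entpd1* above *Adora2b*, *Adora2b* above *Adora2a* and *Adora2a* above *Nt5e* in 16 of 16. *Slc29a1* exceeded *Entpd2*, and *Entpd2* exceeded *Entpd1*, in 15 of 16 mice. *Nt5e* exceeded *Ada* in 13 mice. *Ada* exceeded *Adora3* in only 9, and those 2 traded places when the longest transcript was used as the length, so their order was not resolved. Reads in exons shared with a same-strand gene were dropped, over 28.759% of the length of *Entpd2* and 20.89% of that of *Adora3*. Levels per kilobase of these genes therefore read low, and the place of *Entpd2* below *Slc29a1* is uncertain.

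**Figure D1:**
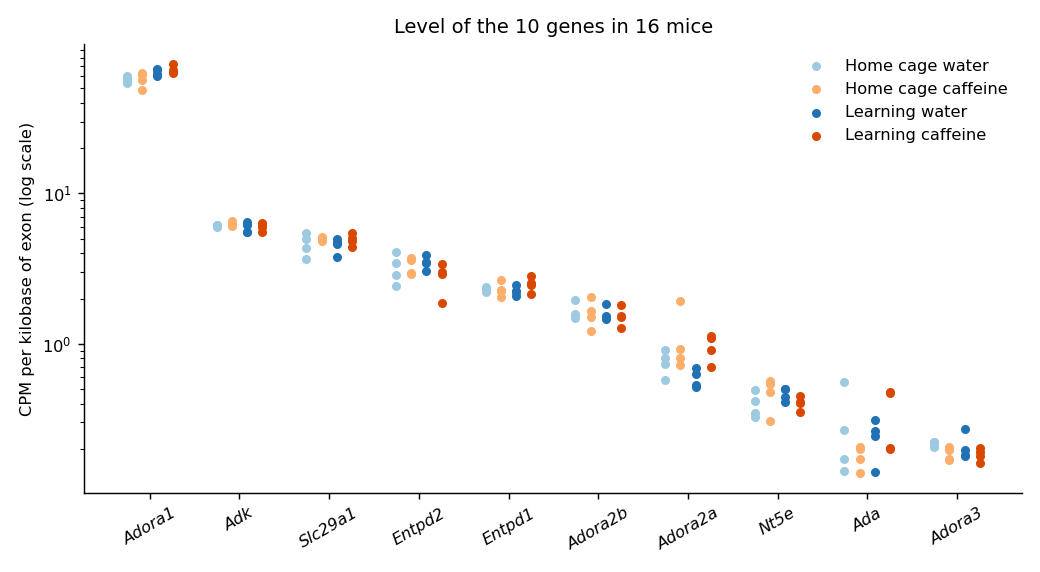
Level of each of the 10 genes in each of the 16 mice, in CPM per kilobase of exon on a log axis, with 1 point per mouse and 1 color per group. *Adora1* lies 10.1 times above *Adk* in the mean, and the single high *Adora2a* point is home cage caffeine mouse 2.

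Among the receptors, *Adora1* made up 93.875% to 96.567% of the summed level per kilobase in every mouse. The lowest share belonged to home cage caffeine mouse 2, in which *Adora2a* reached 2.829%. *Adora2b*, the low-affinity receptor, held 1.704% to 3.196%. *Adora3*, which couples to inhibitory G proteins, held 0.24% to 0.395%.

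The region just before the start of transcription is shown for the receptor with the highest level per length, *Adora1*, for *Adora2b* in the middle and for the lowest, *Adora3*. These are RefSeq sequences on GRCm38.p6, the 250 bases upstream of an annotated start, written 5′ to 3′ on the strand of the gene with CG dinucleotides in capitals. *Adora1* had 2 such windows, and the other is not shown. The *Adora3* stretch lies inside the positions given for that gene below. The *Adora1* stretch is chr1:134235458-134235707 on the minus strand, that of *Adora2b* is chr11:62248734-62248983 on the plus strand and that of *Adora3* is chr3:105904171-105904420 on the plus strand.
Adora1: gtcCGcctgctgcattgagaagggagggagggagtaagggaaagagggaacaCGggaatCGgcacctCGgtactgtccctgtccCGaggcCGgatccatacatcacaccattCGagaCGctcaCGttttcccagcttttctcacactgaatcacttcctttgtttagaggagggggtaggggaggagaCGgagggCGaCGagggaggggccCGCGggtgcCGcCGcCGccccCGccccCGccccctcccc
Adora2b: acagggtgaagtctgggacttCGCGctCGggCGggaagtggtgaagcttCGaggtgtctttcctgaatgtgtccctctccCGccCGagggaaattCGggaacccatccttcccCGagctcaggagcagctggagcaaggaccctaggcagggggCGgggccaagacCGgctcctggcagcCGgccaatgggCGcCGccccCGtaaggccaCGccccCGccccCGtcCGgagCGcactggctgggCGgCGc
Adora3: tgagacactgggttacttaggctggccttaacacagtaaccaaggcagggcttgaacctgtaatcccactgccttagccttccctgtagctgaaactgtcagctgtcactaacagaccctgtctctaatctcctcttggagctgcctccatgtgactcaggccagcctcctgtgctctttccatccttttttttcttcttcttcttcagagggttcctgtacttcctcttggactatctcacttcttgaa

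The *Adora1* stretch held 19 CG dinucleotides with a GC content of 64.4%, and 19.7% of the 32851 RefSeq windows held at least as many. The *Adora2b* stretch held 22 with a GC content of 69.6%, a number that 14.8% of windows reached. The *Adora3* stretch held 0 CG dinucleotides with a GC content of 48.8%, as did 7.87% of all windows, whose median was 6.

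RefSeq windows matched 9 of the 10 genes, with 19 windows in all and none for *Adora2a*. The cyclic AMP response element TGACGTCA was searched on both strands and lay in 0 of those 19, against 1.55% of all windows. Its short form TGACG, which the full element contains, is in 17.8% of all windows and was found once each for *Adk* and *Slc29a1* and in both windows of *Entpd1*. The AP-1 letters TGACTCA, present in 4.46% of windows, lay 98 bases before the start of *Adora3* and 99 before that of *Entpd2*. The EGR letters GCGTGGGCG, in 0.536% of windows, lay in 1 window of *Slc29a1*. A match describes the letters only.

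*Adora1* encodes the A1 receptor and lies on chromosome 1, positions 134199223 to 134235431, minus strand (mm10, as are all gene positions here). Of its exon length, 20.086% is shared with *Mybph* on the opposite strand, which had 145 counts over all libraries. It was higher after learning when both treatments were averaged, and it was the only gene of the 10 that passed the test in any comparison. Home cage water mice 6, 8, 11 and 20 had 313.71, 337.43, 318.78 and 350.18 CPM. Home cage caffeine mice 2, 9, 14 and 17 had 367.80, 351.82, 329.55 and 282.19 CPM. The 2 home cage groups overlapped, and mouse 17 was the lowest of all 16.

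Learning water mice 24, 33, 36 and 38 had 388.77, 380.99, 351.30 and 357.44 CPM. Learning caffeine mice 22, 27, 30 and 40 had 416.67, 367.57, 381.15 and 369.16 CPM. Every learning water mouse lay above every home cage water mouse, although the nearest values were 351.30 and 350.18. Under caffeine the groups overlapped, because home cage mouse 2 exceeded the lowest learning mouse. Among all genes tested, 6.99% had groups that did not overlap in the water comparison.

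The group means were 330 ± 16.9 CPM in home cage water, 332.8 ± 37.2 in home cage caffeine, 369.6 ± 18.1 in learning water and 383.6 ± 22.8 in learning caffeine (SD, n = 4 each). Averaged over both treatments, *Adora1* rose with learning, with a log2 fold change of 0.184 ± 0.05 (SE) with a 95% interval of 0.078 to 0.29 and an adjusted p of 0.0334 in edgeR's quasi-likelihood test. In that comparison 1 of the 10 genes was called at an adjusted p under 0.1, against 14.5% of all genes tested, with 7.81% called higher and 6.71% lower. At an unadjusted p under 0.05 in the edgeR test 1 of the 10 passed, against 25.5% of all genes. The 10 genes had a median log2 fold change of -0.024, beside -0.0129 for all genes.

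Taken by treatment, the *Adora1* difference did not pass the test. In water mice the log2 fold change was 0.163 ± 0.071 (SE), with an adjusted p of 0.376 in edgeR's quasi-likelihood test. In caffeine mice it was 0.205 ± 0.071, with an adjusted p of 0.134 in the same edgeR test and 0.0679 in DESeq2, which is under the threshold of 0.1. The difference between the 2 responses was 0.042, with a 95% interval of -0.17 to 0.253 and an adjusted p of 1 in the edgeR test, so a larger response under caffeine was not shown.

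Leaving out each mouse in turn gave averaged log2 fold changes from 0.152 without home cage caffeine mouse 17 to 0.225 without home cage caffeine mouse 2. The adjusted p ran from 0.0103 to 0.0608 in edgeR's quasi-likelihood test, and the call held in 16 of 16 such fits. Without learning water mouse 24, the highest of its group for *Adora1*, the value was 0.175 with an adjusted p of 0.0443 in the edgeR test.

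Other measures moved with learning in the same mice: 8 of 8 choroid plexus markers and 7 of 10 microglia markers were called lower in the averaged comparison, with microglia sums of 473 to 532.9 CPM in home cage water, 509.9 to 548 in home cage caffeine, 467.8 to 503.4 in learning water and 441.8 to 506.8 in learning caffeine. Of the other lists, 3 of 9 striatal and 2 of 6 mural markers were also called lower. So were 1 of 10 hippocampal neuron markers and 0 of 7 oligodendrocyte markers. The astrocyte, endothelial, leptomeningeal fibroblast and thalamus lists each had 1 marker called lower. Called higher were *Amigo2* of the CA2 list (log2 fold change 0.436) and *Gjb6* of the astrocyte list (0.27). Over all genes tested, 6.71% were called lower and 7.81% higher. The mitochondrial share was 3.232% to 3.443% in 7 of 8 learning mice, below the lowest home cage mouse at 3.462%, and 3.595% in learning caffeine mouse 27. Without home cage water mouse 20, which had the highest choroid plexus sum, and mouse 17 together, the *Adora1* log2 fold change was 0.166 with an adjusted p of 0.0315 in the edgeR test. Home cage water mice 8 and 11 remained in that fit, with choroid plexus sums of 1147.2 and 917.63 CPM. The part of these lists and of the mitochondrial share in the result was not tested.

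Caffeine against water left *Adora1* with a log2 fold change of 0.012 in the home cage, with a 95% interval of -0.138 to 0.162. In learning mice it was 0.054, with an interval of -0.096 to 0.203. Averaged over both conditions the interval was -0.073 to 0.139, which leaves out changes larger than that in either direction at this level of confidence.

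*Adora2a* encodes the A2A receptor and lies on chromosome 10, positions 75316877 to 75334784, plus strand. Its mean level was higher in caffeine than in water mice in both conditions, but no comparison passed the test across all genes. Counts were low, from 50 to 242 per library, so that counting alone gives an error of 14.1% at the lowest count and 6.43% at the highest. Counting errors cover reads only, since no molecular identifiers were used.

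Home cage water mice 6, 8, 11 and 20 had 2.2626, 1.7523, 2.4808 and 2.7939 CPM. Home cage caffeine mice 2, 9, 14 and 17 had 5.867, 2.4558, 2.8382 and 2.2042 CPM. These groups overlapped, as they did for all 10 genes in this comparison, against 1.99% of all genes whose groups did not, and mouse 2 was the highest of the 16.

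Learning water mice 24, 33, 36 and 38 had 2.1288, 1.938, 1.5815 and 1.6286 CPM. Learning caffeine mice 22, 27, 30 and 40 had 3.4383, 3.3406, 2.7689 and 2.1553 CPM. All 4 learning caffeine mice lay above all 4 learning water mice, by a narrow gap between 2.1553 and 2.1288. In that comparison 1 of the 10 genes had groups that did not overlap, against 2.6% of all genes tested.

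**Figure D2:**
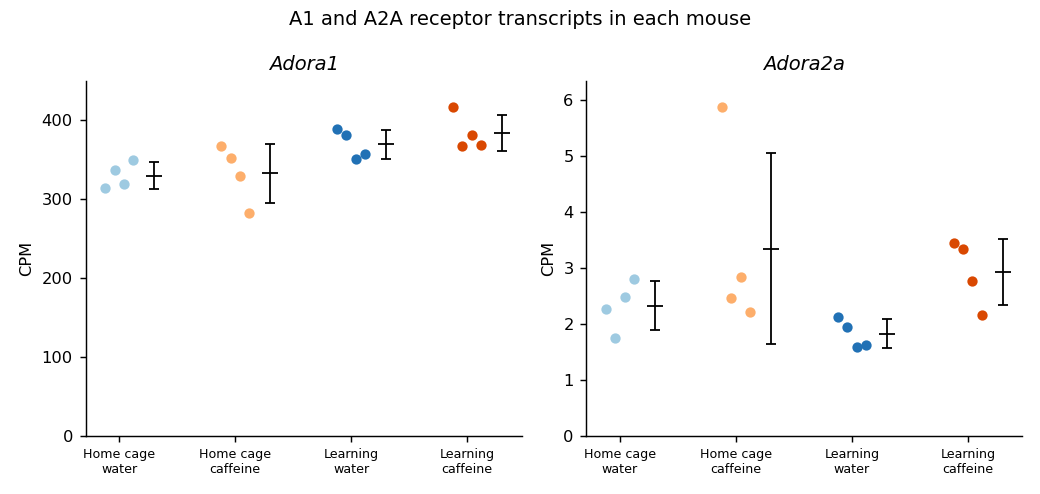
*Adora1* (left) and *Adora2a* (right) in CPM on linear axes from 0, with 1 point per mouse and the group mean ± SD (n = 4) beside the points. *Adora1* means are 330 and 332.8 CPM in the home cage and 369.6 and 383.6 CPM after learning, and for *Adora2a* home cage caffeine mouse 2 stands alone at 5.867 CPM.

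In learning mice *Adora2a* was 1.6-fold higher with caffeine, a log2 fold change of 0.681 ± 0.263 (SE), with an adjusted p of 0.999 in edgeR's quasi-likelihood test. In the home cage it was 0.539 ± 0.263, with an adjusted p of 0.997 in the edgeR test, and 0.104 without mouse 2. Averaged over both conditions it was 0.61 ± 0.186, with a 95% interval of 0.219 to 1.002 and an adjusted p of 0.938 in the edgeR test. By its unadjusted p of 0.00423 from edgeR's quasi-likelihood test, *Adora2a* ranked 79 of 17830 genes in that averaged comparison. In the same test 4.07% of all genes had an unadjusted p under 0.05 and 0 were called, so the rank adds nothing to the adjusted p. Learning water mouse 24 was the highest of its group for *Adora2a*, and without it the value in learning mice was 0.773 and the average 0.658. Without home cage caffeine mouse 2 the averaged log2 fold change dropped to 0.394, and it reached 0.694 without mouse 17.

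None of the 10 genes was called for caffeine in edgeR's quasi-likelihood test, in the home cage, in learning mice or averaged, and 0% of all genes tested was called in each. DESeq2 also called 0 of the 10 in each, while over all genes it called 19 in the home cage. At an unadjusted p under 0.05 in the edgeR test, 0 of the 10 passed in the home cage against 3.57% of all genes, 1 in learning mice against 3.93% and 1 in the average against 4.07%. The single gene was *Adora2a* both times. Medians over the 10 genes were 0.023, 0.038 and 0.027 on the log2 scale, beside -0.0031, -0.0043 and -0.0041 for all genes.

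Because A2A receptors are dense in the striatum, 9 striatal markers were read in the same libraries. None was at 0, and they summed to 202.5 to 227.5 CPM in home cage water, 206.9 to 240.7 in home cage caffeine, 186.9 to 207.1 in learning water and 193.2 to 214.4 in learning caffeine. Home cage caffeine mouse 2, with the highest *Adora2a*, had a striatal sum of 206.95 CPM, the lowest of its group. Its *Drd2* level, the D2 dopamine receptor, was 2.982 CPM, inside the range of its group (1.788 to 4.179). The largest parts of the striatal sum were *Pde10a* and *Ppp1r1b*, with means of 92.89 and 63.36 CPM in home cage water, against 2.71 for *Drd2*. Across the 16 mice *Adora2a* and the striatal sum had a Pearson correlation of 0.05. The same mouse had the highest sum of the 5 CA2 markers, 312.16 CPM, and the correlation of *Adora2a* with that sum was 0.61 by Pearson and 0.36 by rank. The part of striatal tissue and of the CA2 markers in the *Adora2a* values was not tested.

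*Adora2b* lies on chromosome 11 (62248984 to 62266453, plus strand) and *Adora3* on chromosome 3 (105870858 to 105908926, plus strand). Neither was called in any comparison. *Adora2b* ranged over group means of 2.812 to 3.016 CPM, and its averaged log2 fold change was -0.066 for learning (95% interval -0.303 to 0.171) and -0.031 for caffeine (-0.267 to 0.206). *Adora3* ranged from 0.6844 to 0.8011 CPM, with 17 to 38 counts per library. Its averaged log2 fold change was -0.195 for caffeine, with an interval of -0.468 to 0.077 and an adjusted p of 0.985 in edgeR's quasi-likelihood test, and it was -0.117 without learning water mouse 33. *Adora3* shares 779 exon bases, 20.89% of its exon length, with *Tmigd3* on the same strand, and reads there cannot be assigned by counting.

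*Slc29a1* encodes the equilibrative transporter ENT1, through which adenosine crosses the cell membrane, on chromosome 17 (45585200 to 45599606, minus strand). Its group means were 18.48 ± 3.08 CPM in home cage water, 20.02 ± 0.585 in home cage caffeine, 18.17 ± 2.12 in learning water and 19.81 ± 1.71 in learning caffeine (SD, n = 4). Both caffeine means were above their water means, but the groups overlapped, and the averaged log2 fold change of 0.116 had an interval of -0.041 to 0.272, and was 0.072 without home cage water mouse 6. For learning the average was -0.021, with an interval of -0.177 to 0.135. *Slc29a1* shares 6.861% of its exon length with the antisense gene *Gm17080*, which had 7 counts over all libraries.

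*Adk*, on chromosome 14 (21052574 to 21448569, plus strand), had group means between 50.42 and 53.16 CPM. Its SD was 1.84% of the mean in home cage water, 3.26% in home cage caffeine, 8.21% in learning water and 5.51% in learning caffeine. The 95% interval of the averaged log2 fold change was -0.135 to 0.038 for learning and -0.058 to 0.115 for caffeine.

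*Ada*, which deaminates adenosine to inosine and lies on chromosome 2 (163726584 to 163750239, minus strand), gave only 8 to 44 counts per library. Home cage caffeine mice 2, 9, 14 and 17 had 17, 8, 14 and 10 counts of *Ada*, and learning caffeine mice 22, 27, 30 and 40 had 36, 44, 20 and 15. The groups overlapped when scaled to CPM, at 0.279 to 0.4121 and 0.4013 to 0.9595. The log2 fold change of *Ada* with learning under caffeine was 0.903 ± 0.407 (SE), with an adjusted p of 0.24 in edgeR's quasi-likelihood test, and DESeq2 gave no adjusted p for it. In water mice it was -0.203, and the difference of 1.105 between the responses had an interval of -0.112 to 2.323. Without home cage water mouse 6, which had the most *Ada* of its group, the value in water mice was 0.296 and the difference 0.618.

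Among the ectoenzymes, *Entpd1* acts on ATP and ADP, *Entpd2* acts on ATP, and *Nt5e* acts on AMP. *Entpd1* lies on chromosome 19 (40612366 to 40741602), *Entpd2* on chromosome 2 (25395874 to 25401321) and *Nt5e* on chromosome 9 (88327197 to 88372092), all on the plus strand. *Entpd1* had group means of 12.48 to 13.88 CPM and averaged log2 fold changes of 0.038 for learning (95% interval -0.097 to 0.172) and 0.08 for caffeine (-0.054 to 0.215). Without learning caffeine mouse 27 the *Entpd1* value for learning was 0.008, and without home cage caffeine mouse 14 that for caffeine was 0.045. *Entpd2* had 7.374 ± 0.716 CPM in learning water and 5.925 ± 1.39 in learning caffeine, a log2 fold change of -0.309 with an interval of -0.665 to 0.047. Learning caffeine mouse 22, at 3.945 CPM, was the lowest of all for *Entpd2*, and without it the log2 fold change was -0.156. *Entpd2* shares 28.759% of its exon length with *Npdc1*, which lies on the same strand and had 146952 counts over all libraries.

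*Nt5e* makes adenosine from AMP. It had 3.407 ± 0.643 CPM in home cage water, 4.062 ± 1.01 in home cage caffeine, 3.991 ± 0.395 in learning water and 3.486 ± 0.348 in learning caffeine (SD, n = 4). Its log2 fold change with learning was 0.218 in water and -0.224 in caffeine mice. Single mice moved both values, to 0.348 without home cage water mouse 20, to -0.12 without home cage caffeine mouse 14 and to -0.386 without home cage caffeine mouse 17. The difference of -0.441 between them had an interval of -0.954 to 0.071 and an adjusted p of 1 in edgeR's quasi-likelihood test.

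**Figure D3:**
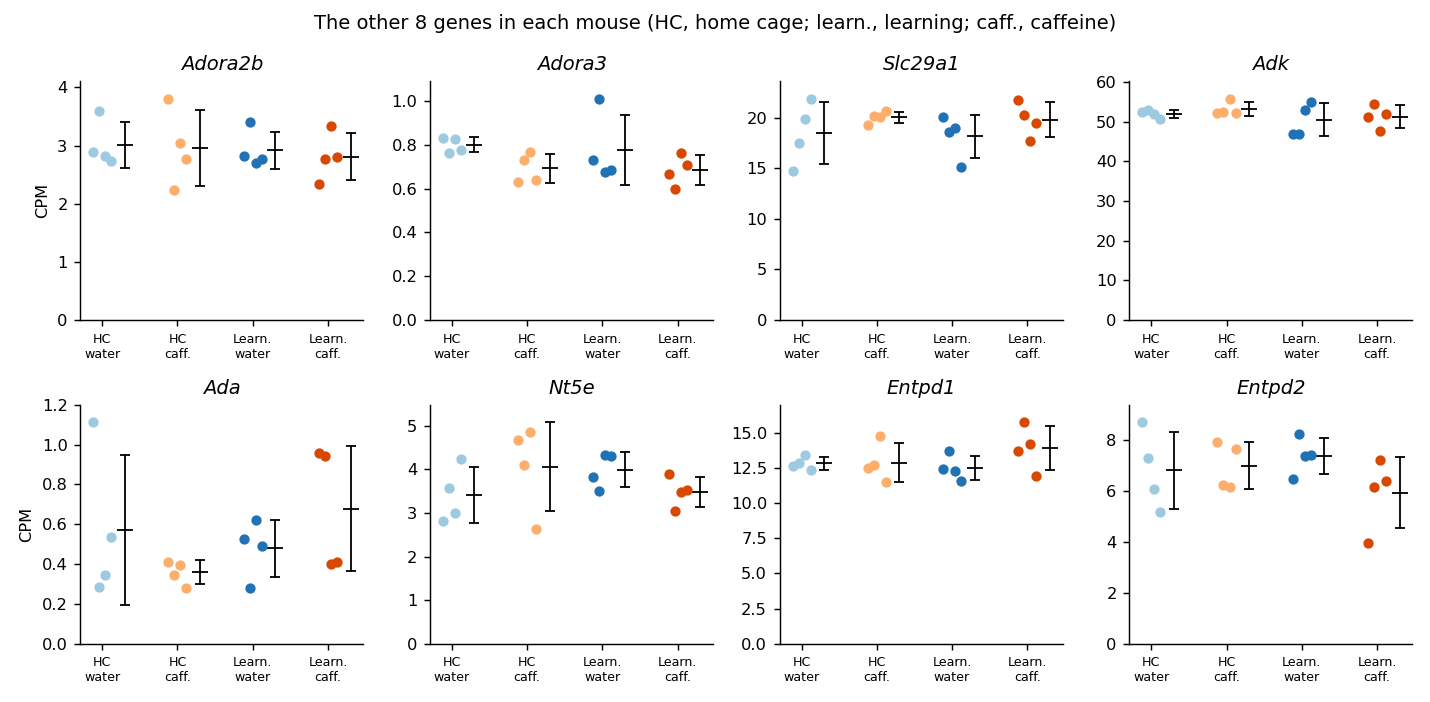
The 8 other genes in CPM, with 1 point per mouse and the group mean ± SD (n = 4) beside the points, each panel on its own axis from 0. Groups overlap in every panel for *Slc29a1*, *Adk* and the ectoenzymes, and *Ada* shows the widest relative spread, with 0.2867 to 1.111 CPM in home cage water.

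Learning against home cage was also read within each treatment. In water mice 0 of the 10 genes was called in edgeR's quasi-likelihood test, against 0.97% of all genes tested (0.639% higher and 0.331% lower), and 1 passed at an unadjusted p under 0.05, namely *Adora1*, against 11.8% of all genes. In caffeine mice 0 of the 10 was called against 5.28% of all genes (3.16% higher and 2.13% lower), and 2 passed at an unadjusted p under 0.05, *Adora1* and *Ada*, against 18.8% of all genes. None of the 10 had groups apart under caffeine, against 10.9% of all genes. DESeq2 called 0 of the 10 in water mice. In caffeine mice it called 1 of the 10, *Adora1*, beside 1581 of the 17830 genes tested. The medians over the 10 genes were -0.039 in water and -0.035 in caffeine, beside -0.0055 and -0.0122 for all genes.

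For the difference between the learning responses, 0 of the 10 genes was called in edgeR's quasi-likelihood test and in DESeq2, against 0% of all genes in edgeR. At an unadjusted p under 0.05 in the edgeR test 0 of the 10 passed, against 3.63% of all genes. The comparisons share the home cage and learning mice, so they are not independent of each other.

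**Figure D4:**
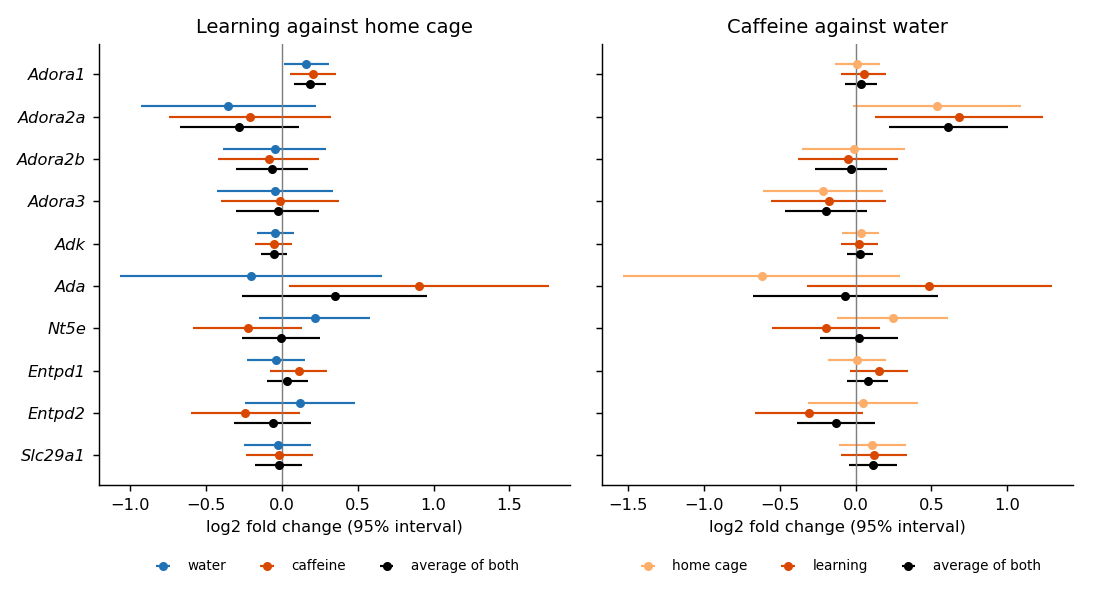
Log2 fold changes of the 10 genes with 95% intervals from edgeR's quasi-likelihood fit, for learning against home cage (left) and caffeine against water (right), by subgroup in color and averaged in black. The averaged *Adora1* interval for learning runs from 0.078 to 0.29 and that of *Adora2a* for caffeine from 0.219 to 1.002.

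**Figure D5:**
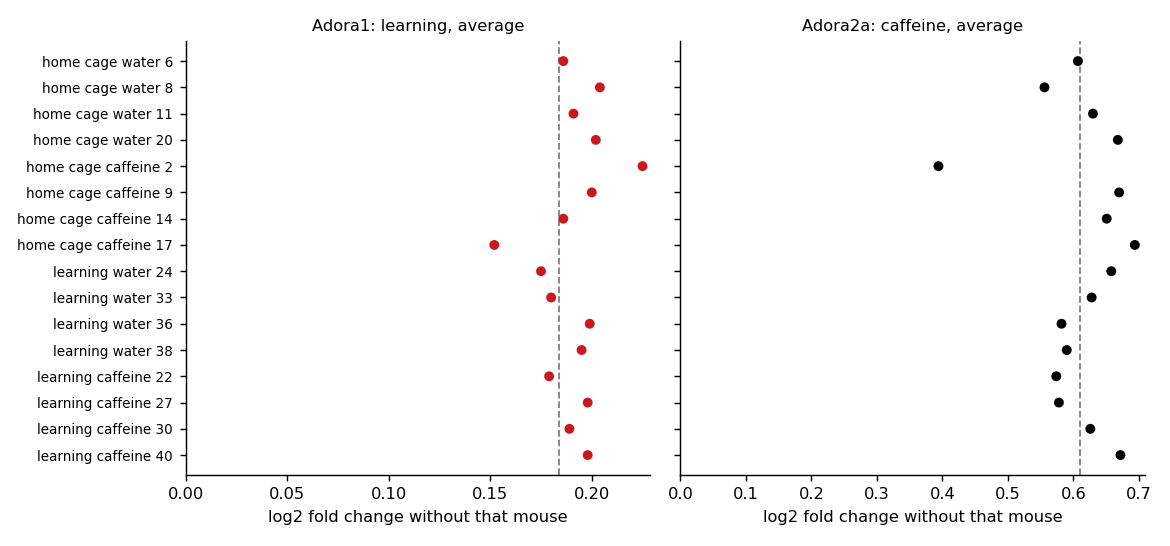
Averaged log2 fold change of *Adora1* for learning (left) and of *Adora2a* for caffeine (right) when the named mouse is left out, with the value from all 16 mice as a dashed line. *Adora1* stays between 0.152 and 0.225, and *Adora2a* falls from 0.61 to 0.394 without home cage caffeine mouse 2.

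Around these 10 genes, 76 others of the pathway were listed, covering nucleotidases, nucleoside transporters, purine turnover, ATP release, ATP and ADP receptors, and G protein coupling. Of these, 73 were in the table and 63 passed the filter. With learning averaged over both treatments, 4 rose and 5 fell in edgeR's quasi-likelihood test, 14.3% of the 63 against 14.5% of all genes. Their median log2 fold change was -0.007.

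A pair of purine enzymes led those that rose. *Xdh*, the xanthine dehydrogenase that makes uric acid, averaged 5.305 CPM in home cage water (4.301 to 6.018), 4.656 in home cage caffeine (4.218 to 5.127), 7.206 in learning water (5.791 to 8.538) and 7.23 in learning caffeine (6.521 to 7.859), with an averaged log2 fold change of 0.54 and an adjusted p of 0.00224 in the edgeR test. *Adal*, a deaminase-like relative of *Ada*, rose by 0.281 on the log2 scale, with an adjusted p of 0.00868 in the edgeR test.

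Those that fell included *P2ry13*, a microglial ADP receptor, with a log2 fold change of -0.322 and an adjusted p of 0.00448 in edgeR's quasi-likelihood test. *P2ry13* had 14.61 to 17.35 CPM in home cage water and 11.17 to 14.49 in learning water. The log2 fold change was -0.375 for *Calhm2*, a channel gene, -0.708 for *Enpp3*, an ectonucleotidase, and -0.789 for *Pnp2*, a purine nucleoside phosphorylase. *Pnp2* has a near copy that was not matched in the table, so its counts are uncertain. The remaining calls, named after their values were seen, were *Gnaz* (0.13) and *Gnai3* (0.134), which encode inhibitory G protein subunits, and the nucleoside transporter *Slc28a3* (-1.43). *Slc28a3* lay near the floor, with means of 0.4212 CPM in home cage water and 0.1901 in home cage caffeine. Its means were 0.1024 CPM in learning water and 0.09829 in learning caffeine. *Enpp3* and *Pnp2* were also low, at 0.1605 to 0.596 and 0.2006 to 0.8958 CPM in single mice.

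Within caffeine mice, 3 of the 63 rose and 4 fell with learning, 11.1% against 5.28% of all genes, with a median of -0.026. These were *Xdh* (0.639), *Adal* (0.319) and *Entpd6* (0.197, named after its value was seen) among those higher, and *Enpp3* (-1.304), *Slc17a9* (-0.89), *Calhm2* (-0.532) and *P2ry13* (-0.302) among those lower. *Slc17a9*, the vesicular nucleotide transporter, had 0.4235 ± 0.134 CPM in home cage water, 0.8175 ± 0.199 in home cage caffeine, 0.3932 ± 0.0464 in learning water and 0.4399 ± 0.0882 in learning caffeine (SD, n = 4). Home cage caffeine was thus the high group for *Slc17a9*. Its log2 fold change with caffeine in the home cage was 0.968, but the adjusted p was 0.767 in edgeR's quasi-likelihood test. The groups did not overlap there, as for 1.99% of all genes tested. Levels of *Slc17a9* were low, from 0.2418 CPM in a home cage water mouse to 1.06 in a home cage caffeine mouse. None of the 63 was called in water mice, for caffeine or for the difference between responses in edgeR's quasi-likelihood test. In water mice the log2 fold change was 0.44 for *Xdh*, 0.243 for *Adal* and -0.001 for *Entpd6*. It was -0.343 for *P2ry13*, -0.218 for *Calhm2*, -0.112 for *Enpp3* and -0.078 for *Slc17a9*. The choroid plexus and microglia markers given above also moved with learning, and their part in these changes was not tested.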

How the data were processed

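Poly-A RNA from dorsal hippocampi of 16 mice was sequenced. The authors prepared stranded libraries, aligned single-end reads to mm10 (STAR, Bowtie 2), retained those with a unique position, and deposited raw counts per Ensembl gene made with HTSeq 0.6.1p1 in union mode, without normalization or molecular identifiers. The strand setting of the counting is not given in the sources used here. Reads shared by overlapping genes are dropped in union mode, which lowers counts of *Adora3* and *Entpd2*, and if strand was not used also those of *Adora1* and *Slc29a1*.

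Identifiers were matched to GENCODE M21, and 35247 of 35328 had a symbol. Counts were tested in R 4.3.3 with edgeR 4.0.16: TMM scaling, filterByExpr with a minimum count of 10, a mean per group over 16 libraries, the quasi-likelihood test, Benjamini-Hochberg adjustment over 17830 genes, and a call at an adjusted p under 0.1. Intervals use the quasi-likelihood standard error. The study used DESeq2, tried here as an alternative (version 1.42.0). CPM are relative to the TMM-scaled library total. Library totals of 23078094 to 49949281 counts set the counting precision. The p-values judge group differences against the spread between these mice, estimated over all groups with information shared across genes, and against counting error. The steps were tested on simulated counts with 200 genes changed, read for learning under caffeine at the same threshold. There edgeR recovered 182 of the 200 with 22 false calls, and DESeq2 recovered 180 with 50 false calls.

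Members and lists were chosen with earlier results of these data known. All 10 genes are named. Of the pathway lists every called gene is named, or the 6 of smallest p where more were called, and for each member the 3 genes of highest Pearson correlation over 16 libraries. Alternatives were other scaling, filters, threshold, test, libraries, length and left-out mice. Chromatin data were not analysed here.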

Additional observations from a re-analysis of the deposited data

Results flagged for a closer look

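Of 40 groups of 4 mice examined (10 genes in 4 groups), 2 held a mouse far from the other 3 by Dixon's gap test, and chance flags about 1 in 20 groups. Learning water mouse 33 had 3.398 CPM of *Adora2b*, above the other 3 mice of its group. Home cage caffeine mouse 14 had 55.74 CPM of *Adk*, above the other 3 of its group. The high *Adora2a* value of home cage caffeine mouse 2, 5.867 CPM, had a gap of 0.827 of the range of its group, just short of the critical value. Learning water mouse 33 had the same gap of 0.827 for *Adora3*, at 1.011 CPM.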

How the results depend on the processing

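Over 70 log2 fold changes of the 10 genes, 1643 values were computed under alternative settings. For learning averaged over treatments 1 of the 10 genes, *Adora1*, was called in all 24 settings run. The number called for learning under caffeine was 0 in the edgeR fit, 1 with DESeq2 and 0 to 1 when each mouse was left out: *Adora1* was called without home cage water mouse 6 (0.22, adjusted p 0.0967 in edgeR) and without home cage caffeine mouse 2 (0.274, adjusted p 0.0609 in edgeR). Over all genes that comparison gave 942 calls with edgeR and 1581 with DESeq2. The cause of these changes was not tested. In the other comparisons 0 of the 10 was called under every setting run. Leaving out 2 mice together and the length and GC offset were chosen after seeing the data. No paired analysis was possible because the groups share no replicate numbers.

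Signs turned in 109 of those values, all of them for changes that were not called. When each mouse was left out, the ranges that crossed 0 were as follows. For caffeine in the home cage they ran from -0.04 to 0.086 for *Adora1*, -0.158 to 0.094 for *Adora2b*, -0.067 to 0.061 for *Entpd1* and -0.061 to 0.187 for *Entpd2*. For caffeine in learning mice they ran from -0.142 to 0.034 for *Adora2b* and -0.008 to 0.07 for *Adk*. For learning under water they ran from -0.125 to 0.065 for *Adora2b*, -0.192 to 0.021 for *Adora3*, -0.41 to 0.296 for *Ada*, -0.079 to 0.003 for *Entpd1* and -0.106 to 0.069 for *Slc29a1*. For learning under caffeine they ran from -0.367 to 0.242 for *Adora2a*, -0.184 to 0.079 for *Adora2b*, -0.068 to 0.055 for *Adora3* and -0.047 to 0.038 for *Slc29a1*. For the difference of learning responses they ran from -0.029 to 0.097 for *Adora1*, -0.02 to 0.581 for *Adora2a*, -0.14 to 0.112 for *Adora2b*, -0.028 to 0.186 for *Adora3*, -0.044 to 0.034 for *Adk* and -0.082 to 0.104 for *Slc29a1*. For learning averaged over treatments they ran from -0.114 to 0.023 for *Adora2b*, -0.099 to 0.008 for *Adora3*, -0.083 to 0.064 for *Nt5e*, -0.114 to 0.031 for *Entpd2* and -0.054 to 0.028 for *Slc29a1*. For caffeine averaged over conditions they ran from -0.102 to 0.024 for *Adora2b*, -0.175 to 0.178 for *Ada* and -0.023 to 0.11 for *Nt5e*. Signs that turned under other settings had these values. With DESeq2 they were 0.001 for *Adora3* (learning under caffeine) and 0.003 for *Nt5e* (learning averaged over treatments). With DESeq2 size factors in edgeR they were 0.003 for *Nt5e* (learning averaged over treatments). With every gene of 1 or more counts kept they were 0.001 for *Adora3* (learning under caffeine) and 0.007 for *Nt5e* (learning averaged over treatments). With the length and GC offset they were -0.005 for *Entpd2* (caffeine in the home cage), 0.007 for *Slc29a1* (learning under water), 0.02 for *Adora3* (learning under caffeine), 0.04 for *Slc29a1* (learning under caffeine), 0.01 for *Entpd2* (learning averaged over treatments) and 0.023 for *Slc29a1* (learning averaged over treatments). Without home cage water mouse 20 and home cage caffeine mouse 17 together they were -0.108 for *Entpd2* (caffeine in the home cage), 0.066 for *Slc29a1* (learning under water), 0.005 for *Slc29a1* (learning under caffeine), -0.053 for *Adora1* (the difference of learning responses), -0.122 for *Adora2a* (the difference of learning responses), -0.061 for *Slc29a1* (the difference of learning responses) and 0.035 for *Slc29a1* (learning averaged over treatments). The 3 genes most like a member were not all the same for any of the 10 when group means were removed. Among the 10 genes, low counts limit *Ada*, *Adora3* and *Adora2a* most.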

Other observations

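The genes whose log2 CPM ran most like each member over the 16 mice were found among 13379 genes, as a description of these libraries, which differ in depth and in their marker sums. For *Adora1* they were *Rnf182* (Pearson correlation 0.948), *Pfkfb3* (0.944) and *Arhgef17* (0.943), and with group means removed the correlations were 0.93, 0.908 and 0.938. For *Adora2a* they were *Dnajc12* (0.811), *Gm45495* (0.803) and *Dbndd1* (0.801). For *Entpd1* they were *Tnfrsf1b* (0.839), *Bap1* (0.804) and *Flt1* (0.797), and for *Entpd2* *Mfge8* (0.88), *Gm527* (0.87) and *Garem2* (0.858). For *Slc29a1* they were *Senp3* (0.849), *5031434O11Rik* (0.849) and *Gramd1c* (0.84).

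For *Adora2b* the nearest were *Ccdc149* (0.838), *Arhgap24* (0.736) and *9330121K16Rik* (0.691), and for *Adora3* *Prrc1* (0.774), *Ncapg2* (0.751) and *Patz1* (0.746). For *Adk* they were *Pars2* (0.802), *Zfp763* (0.788) and *Tceal9* (0.788), for *Ada* *Paip2b* (0.828), *Gadd45g* (0.826) and *Mcfd2* (0.816), and for *Nt5e* *Ctsc* (0.827), *Asph* (0.818) and *Spock3* (0.806). Among the 10 genes themselves, *Entpd2* and *Slc29a1* ran most oppositely, with a correlation of -0.68 over the 16 mice and -0.73 with group means removed. *Adora2b* and *Entpd2* had a correlation of 0.58.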
